A study of Drosophila melanogaster with 4 samples.

Results

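H3K4me3, the histone mark of active gene starts, was examined at 10 genes that encode histone variants and the proteins that deposit or exchange histones in ovaries of Drosophila melanogaster. The genes were His2Av, His3.3A, His3.3B, BigH1, Hira, yem, asf1, Nlp, Nap1 and Chd1. They were chosen by name, and all 10 were found by symbol among the 13945 protein-coding genes that the Ensembl annotation places on the main chromosome arms (BDGP6, the dm6 assembly). Chromatin immunoprecipitation and sequencing (ChIP-seq) gave 4 peak lists, 2 from control females that carried the MTD-Gal4 driver alone (MTD-Gal4>+) and 2 from lid KD females in which it drove a hairpin RNA that silences lid (MTD-Gal4>shRNA lid). Lid is a demethylase that removes methyl groups from H3K4, and the libraries were compared to see where the mark differs once Lid is depleted from germ cells. MTD-Gal4 acts in female germ cells, so the somatic follicle cells of the same ovaries were not targeted. Ovaries were pooled within a library, and fewer cells of a type and less signal per cell cannot be told apart. The tissue label gives females 3 days old, whereas the protocol describes virgin females 0 to 1 day old, in both groups alike, and the study's methods give yet another age.

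Nucleosomes are built from replication-dependent histones during DNA synthesis, and outside it a few variant histones are put in place by dedicated chaperones. H3.3 replaces H3 at transcribed genes, H2A variants of the H2A.Z family sit beside start sites, and germ cells use a linker histone of their own. In the egg the same machinery, loaded by the mother, assembles the paternal genome into nucleosomes after sperm protamines are removed. Much of it is made in the germ cells of the ovary and stored in the egg.

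The lists held 12087 to 25302 peaks, and the background of the genome was 48.4 to 60.1 fragments per base. Peak strength was read as the fold enrichment at the summit (fragments over the summit divided by the background that the peak caller took for that place) and as its percentile rank (100 for the strongest peak of a library), after all lists had been shortened to the 12087 strongest peaks. A rank places a peak among the others of its own library. It cannot show a change shared by all peaks, and a lower rank need not mean less of the mark. Over the bulk of 8865 regions the lid KD libraries differed from each other by no more than counting error, so they were counted as 1 sample in the means of 3 samples. The SD was 0.996 counting errors, against 2.27 for the control pair. It was estimated from the median absolute deviation, which gives little weight to outlying regions. The peak at lid itself was present in every library, but peak lists do not measure the transcript. Of the germ cell markers, nanos and osk had a peak in all 4 libraries, grk in 3, aub in the lid KD libraries alone and vas in none. The follicle cell markers tj, Fas3 and Yp1 had one in all 4, of the neuronal markers elav had one in 4, nSyb in 3 and brp in 1, and the muscle and sperm genes Mhc, up, Mst87F and ProtA had none. Some of these marker peaks also had both lid KD ranks below both controls, as did 41.0% of all genes ranked in every library. The differences were -20.5 points at Yp1 (22.7 and 38.4, against 1.61 and 18.5), -9.2 at nanos and -9.7 at elav. At osk, tj and Fas3 the groups overlapped, with differences of 1.0, 0.1 and -3.6 points. The part of these marker peaks in the results was not tested.

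The sequences at the start sites on which the results turn are shown 5′ to 3′ on the strand of the gene (RefSeq genome, Release 6, dm6). The 5 promoter stretches end with the first 10 transcribed bases, in capitals. They are the gene of the H2A variant, both H3.3 genes, of which His3.3B appears with its outermost and its innermost start site, and Hira, the gene with the strongest peak. The 2 short stretches hold the core promoter elements GGTCACAC and TATCGATA, in capitals, at the inner start site of His3.3A and upstream of Nlp.
His2Av, chr3R:26866788-26866938, plus strand: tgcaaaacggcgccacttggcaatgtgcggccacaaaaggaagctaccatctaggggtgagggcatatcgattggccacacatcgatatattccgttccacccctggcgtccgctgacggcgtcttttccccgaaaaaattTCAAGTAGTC
His3.3A, chr2L:5054997-5055067, plus strand: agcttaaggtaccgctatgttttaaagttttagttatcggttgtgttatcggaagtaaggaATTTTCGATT
His3.3B outermost start, chrX:9156660-9156819, minus strand: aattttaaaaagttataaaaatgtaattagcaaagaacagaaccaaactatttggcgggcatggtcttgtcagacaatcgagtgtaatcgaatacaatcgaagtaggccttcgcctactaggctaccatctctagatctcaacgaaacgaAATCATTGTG
His3.3B innermost start, chrX:9155003-9155162, minus strand: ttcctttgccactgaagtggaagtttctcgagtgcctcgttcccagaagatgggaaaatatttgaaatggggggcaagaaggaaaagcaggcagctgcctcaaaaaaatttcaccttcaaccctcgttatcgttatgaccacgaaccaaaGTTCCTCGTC
Hira, chrX:7721969-7722128, plus strand: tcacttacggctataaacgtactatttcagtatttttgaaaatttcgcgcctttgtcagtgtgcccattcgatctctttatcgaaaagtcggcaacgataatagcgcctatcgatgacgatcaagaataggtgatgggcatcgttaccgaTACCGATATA
His3.3A element, chr2L:5055122-5055149, plus strand: atgaatatagGGTCACACtgagcagacg
Nlp element, chr3R:30004724-30004751, plus strand: agcgcaggacTATCGATAttattcgttt

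All 10 genes had a peak within 500 bp of an annotated start site in all 4 libraries, as did 48.3% of all protein-coding genes. The genes ranged over most of the strength scale, each placed by the strongest peak in its window. At BigH1 that peak lay on the side of the divergent gene Rad17, and the peak over BigH1 itself had ranks of 76.2 to 80.0. At asf1 and Chd1 the strongest peak of control replicate 2 lay on the side of a divergent neighbour. For asf1 it ranked 90.0, against 84.9 for the peak over the gene. Hira lay highest, at a mean rank of 93.6 over the 3 samples, followed by asf1 at 89.3, BigH1 at 85.1, Nlp at 80.6, Nap1 at 78.4, yem at 74.8, Chd1 at 71.6, His3.3A at 65.0, His2Av at 62.1 and His3.3B at 43.0. The 3 core histone variants thus took the 3 lowest places, below every chaperone. In this order Hira stood above asf1, Nap1 above yem, yem above Chd1 and His2Av above His3.3B in every library with no overlap, whereas the ranges of the other neighbours overlapped. Over the 6550 genes ranked in every library the median rank was 78.4 in the controls, against 77.4 in lid KD, against 76.9 and 76.1 for the 10 genes.

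**Figure D1:**
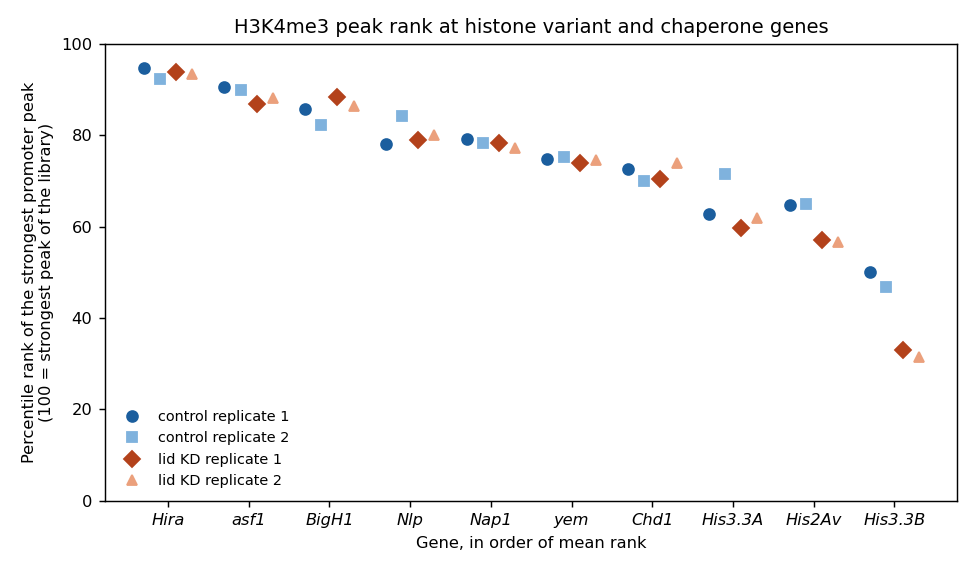
Percentile rank of the strongest H3K4me3 peak at each gene (vertical axis, 100 is the strongest peak of the library) in the 4 libraries, with genes in the order of their mean rank. At BigH1 this peak lies on the side of the divergent gene Rad17. Circles and squares are the controls, diamonds and triangles the lid KD libraries. The lid KD points of His2Av and His3.3B lie below both controls, and those of His3.3B at 32.9 and 31.5 against 50.1 and 46.7.

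Between the groups, the largest differences in rank by fold enrichment were at the core histone variants, although at His3.3A the difference was small by summit coverage and turned to 3.80 when peaks were ranked within GC classes. Both lid KD ranks lay below both control ranks at 6 genes (His2Av, His3.3A, His3.3B, yem, asf1 and Nap1), where 41.0% of all ranked genes did so, and above both at 1 gene, BigH1, against 17.0%. Beyond a margin of 10 points, 1 of the 10 genes was lower in lid KD, His3.3B, against 1.31% of all genes, and 0 of the 10 were higher, against 1.16%. The median difference over the 10 genes was -1.29 points, close to -1.36 over all ranked genes. An exact two-sided permutation test over 2 against 2 libraries cannot give a p under 0.333. It gave 0.333 for the 7 genes whose groups did not overlap, 0.667 for Chd1 and 1 for Hira and Nlp, with Benjamini-Hochberg values of 0.476 to 1 over the 10 genes, so no difference of a single gene passed the test. The test takes the lid KD libraries as 2 samples, although they counted as 1 in the means.

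His3.3B (FBgn0004828, chrX:9152523-9156669, minus strand) is one of a pair of genes that encode the same replacement histone, H3.3. It has 3 annotated start sites and had the weakest peak of the 10 genes. The fold enrichment at the outermost start site was 2.60 and 3.02 in the controls, against 2.11 and 2.08 in lid KD, and its rank was 50.1 and 46.7 against 32.9 and 31.5. The groups did not overlap, and the mean rank fell by 16.3 points from 48.4 ± 2.40 (SD, n = 2) to 32.2. Its summit lay 225 to 252 bp downstream of this start site, in an intron, in all 4 libraries.

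The fragments and the background at this summit moved separately. The solved summit pileup was 743 fragments (95% Poisson interval 691 to 798) and 889 (832 to 949) in the controls, and 828 (773 to 886) and 799 (745 to 856) in lid KD. In multiples of the genome background of each library this is a coverage of 12.4 and 18.4 against 14.9 and 14.1, so the lid KD libraries lay between the controls. The local background was 4.75 and 6.06 times that of the genome in the controls, and 7.06 and 6.78 times in lid KD, above both controls. These intervals cover counting error only.

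A second peak at His3.3B was called in lid KD alone. It covered the innermost start site, with summits 43 and 45 bp downstream of it in the 5′ untranslated region (chrX:9154849-9155096 over both libraries), widths of 248 and 241 bp, fold enrichments of 1.93 and 1.90 and summit pileups of 838 (782 to 897) and 812 (757 to 870) fragments. No control library had a peak there. This was 1 of the 17 start sites of the 10 genes, whereas 0.326% of 19607 start sites in all had a peak in both lid KD libraries and in no control, and 0.836% the reverse, which none of the 17 showed. The local background of these lid KD peaks was 7.83 and 7.53 times that of the genome. Control peaks elsewhere were taken on a local background of 6.02 to 9.40 times. Their first percentile of fold enrichment was 1.22 over 106 peaks of control replicate 1 and 1.33 over 492 peaks of control replicate 2. The 5th percentile was 1.5 and 1.8, beside 1.93 and 1.90 for the lid KD peaks here. These percentiles cover called peaks only and do not show which signals were missed. The control background at this start site is not known. Whether a control peak here fell below the calling limit was therefore not tested. The middle start site was reached only in control replicate 1, where the outermost peak was 762 bp wide against 264 to 271 bp in the other 3 libraries.

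**Figure D2:**
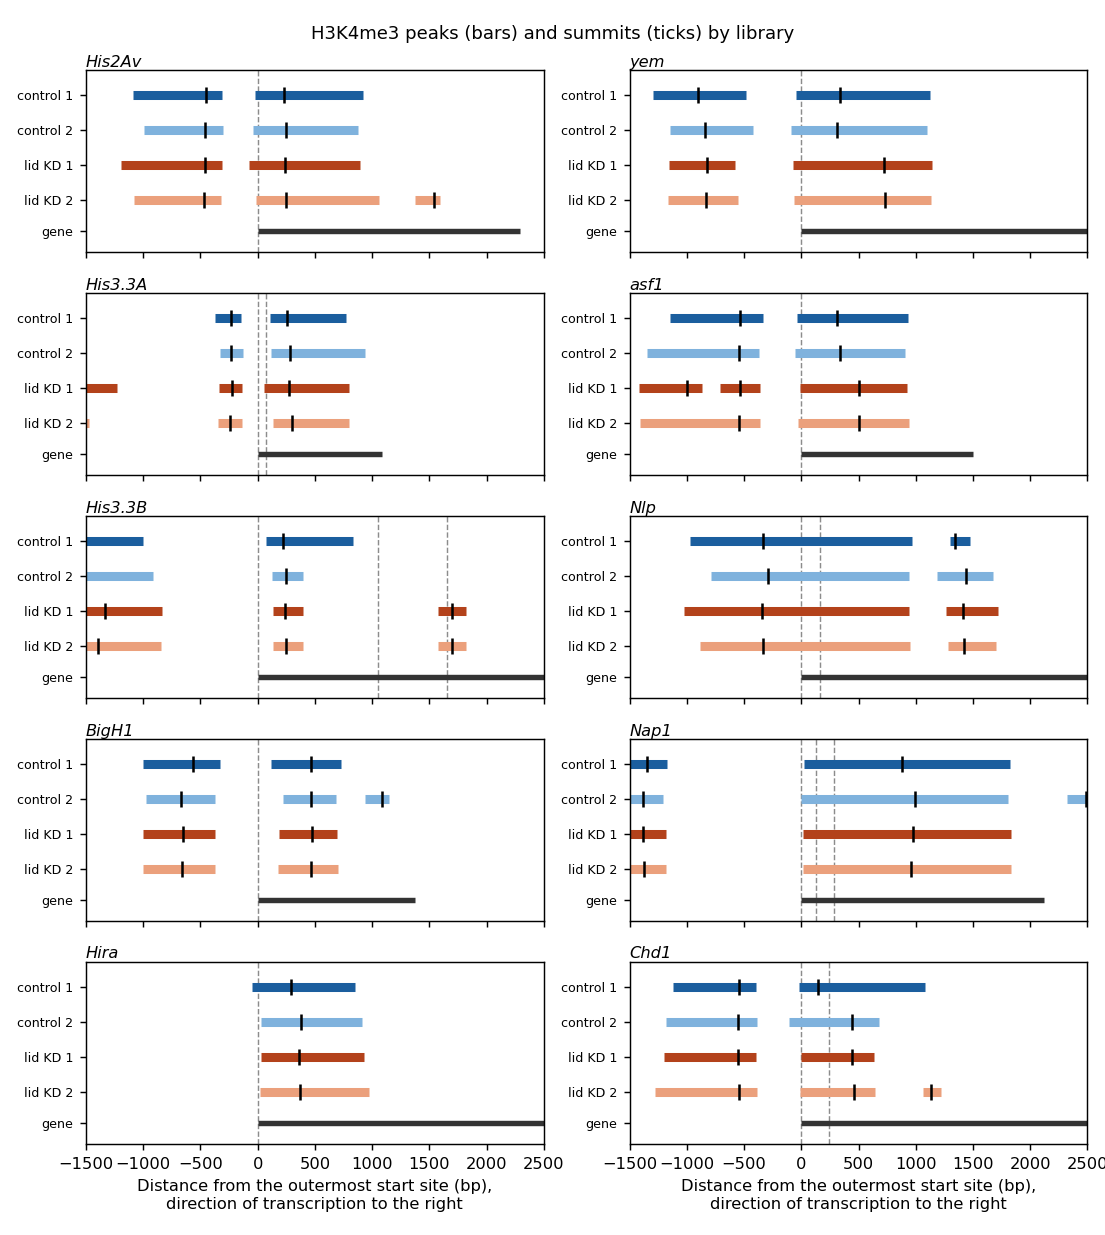
H3K4me3 peaks (bars) and their summits (black ticks) around the 10 genes in the 4 libraries, plotted by distance in bp from the outermost annotated start site with transcription to the right. Dashed lines are annotated start sites and the dark bar is the gene, cut off at 2500 bp. A peak at the innermost start site of His3.3B appears only in the lid KD rows, and the summits of yem and asf1 lie farther downstream in lid KD.

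His3.3A (FBgn0014857, chr2L:5055058-5056149, plus strand) encodes the same H3.3 protein from a short gene. Its peak began near the inner of its 2 start sites and had its summit 183 to 227 bp downstream of it, in the coding sequence. Fold enrichment was 3.84 and 5.68 in the controls, against 4.15 and 4.29 in lid KD. The fold enrichments overlapped, but the ranks, 62.7 and 71.6 against 59.7 and 62.0, did not. The mean rank fell by 6.3 points from 67.1 ± 6.31 (SD, n = 2), a difference no larger than the control SD. It was -1.85 points without control replicate 2 and -10.77 without control replicate 1. A weaker peak 226 to 238 bp upstream of the outer start site faced the neighbour CG14036, which starts 42 bp away in the other direction.

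His2Av (FBgn0001197, chr3R:26866929-26869220, plus strand) encodes the only H2A variant of the fly, which serves as both H2A.Z and H2A.X. Its summit lay in an intron, 234 to 251 bp downstream of the start site. Fold enrichment was 4.04 and 4.75 in the controls, against 3.87 and 3.76 in lid KD, and rank was 64.8 and 64.9 against 57.0 and 56.6. The 2 control ranks were almost equal, and both lid KD ranks lay 7.77 points or more below them. The mean fell by 8.0 points, with a control SD of 0.0644. Its upstream peak, on the side of ball, a histone kinase gene that starts 122 bp away, had ranks of 59.0 and 59.4 in the controls, against 53.0 and 53.9 in lid KD, so both peaks of this divergent pair ranked lower in lid KD.

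His2Av and His3.3A carried the highest H3K4me3 coverage of the 10 genes on the mean of the 3 samples, in spite of these middling ranks. His2Av lay above Nlp, the next gene, in 3 of the 4 libraries, and below it in lid KD replicate 2, at 27.0 against 27.8. Coverage at the summit was 20.7, 34.1, 28.8 and 27.0 times the genome background at His2Av (control replicates 1 and 2, then lid KD replicates 1 and 2). At His3.3A it was 22.4, 38.0, 33.0 and 32.7 times. Control replicate 1 was lowest and control replicate 2 highest at both genes, with lid KD between. Averaged over the 3 samples these values stood at percentile 80.5 and 91.9 of the 6550 ranked genes, whereas His3.3B stood at 27.7. All 3 genes lay on a high local background, at percentile 95.2 for His2Av, 96.3 for His3.3A and 92.6 for His3.3B. Fold enrichment divides by this background, and so these genes ranked far lower by fold enrichment than by coverage.

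**Figure D3:**
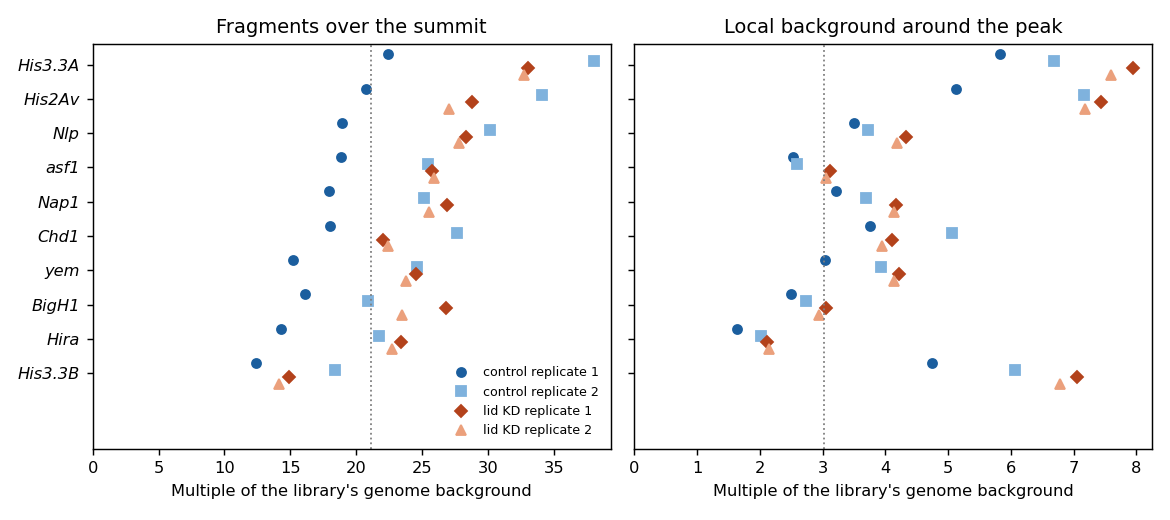
Fragments over the summit (left) and local background (right) of the strongest peak at each gene, both in multiples of the genome background of the library, with the dotted line at the median of 6550 genes (21.1 and 3.02). His3.3A and His2Av have the highest mean coverage, and with His3.3B they have the highest local background, above both controls in lid KD.

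The rank difference went with the local background over all genes. These measures are not independent, because fold enrichment divides by this background. The classes were also cut on its mean over the 3 samples, lid KD included. In the 1827 ranked genes with a local background under 2 times that of the genome the median difference was 1.15 points, and 18.5% had both lid KD ranks below both controls. In the 997 genes at 5 times or more it was -5.48 points, 77.3% lay below, 1.91% were lower beyond the margin and 0 were higher. His2Av, His3.3A and His3.3B belonged to this last class, with -8.0, -6.3 and -16.3 points. The median local background of the class was 4.84 and 6.06 in the controls, against 6.97 and 6.71 in lid KD, so the higher background in lid KD that was measured at His3.3B was matched by the class. Whether the background accounts for the lower ranks was not tested. When peaks were ranked by summit coverage, which is not divided by the local background, the difference was -5.42 points at His2Av, -0.53 at His3.3A and -8.07 at His3.3B. By this measure the ranks of His3.3B were 68.8 and 72.7 against 62.7 and 62.5, and no gene of the 10 was lower beyond the margin. The largest difference by this measure was that of Chd1, at -9.75 points. It compared unlike peaks, since a peak on the side of the divergent gene Bem46 stood for Chd1 in control replicate 2. The peak over Chd1 itself had a coverage of 19.8 in that library, against 22.0 and 22.4 in lid KD.

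**Figure D4:**
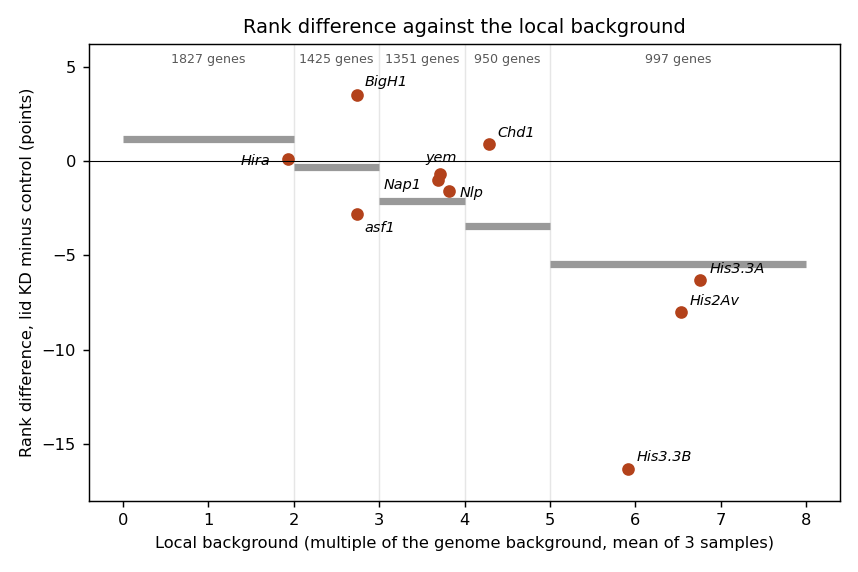
Rank difference in points (lid KD minus control, vertical axis) against the mean local background of the 3 samples (horizontal axis, multiples of the genome background) for the 10 genes (points). Grey bars are the medians of all ranked genes in 5 classes of local background, from 1.15 in the lowest class to -5.48 in the class from 5 upward, whose bar is drawn to 8.

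BigH1 (FBgn0038252, chr3R:14663450-14664822, plus strand) encodes the linker histone of the germ line and the early embryo. It was the only gene of the 10 with both lid KD ranks above both control ranks. The strongest peak in its window had fold enrichments of 6.41 and 7.58 in the controls, against 8.72 and 7.95 in lid KD, and ranks of 85.7 and 82.3 against 88.4 and 86.5. That peak had its summit 568 to 669 bp upstream, beyond the start site of the divergent gene Rad17 at 253 bp, and reached only the outer part of the window. The peak over BigH1 itself, with its summit 463 to 472 bp downstream in the coding sequence, had fold enrichments of 5.17 and 7.12 against 6.68 and 6.53. Its ranks of 76.2 and 80.0 in the controls enclosed those of lid KD, 79.7 and 79.6. With the gene's own peak the groups therefore overlapped, and no gene was left above.

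Hira (FBgn0022786, chrX:7722119-7725917, plus strand) encodes the chaperone that deposits H3.3 outside DNA synthesis. Its single peak, 883 to 955 bp wide, lay just inside the gene with no divergent protein-coding start within 1000 bp. Fold enrichment was 8.74 and 10.6 in the controls, against 11.0 and 10.5 in lid KD, and rank was 94.8 and 92.4 against 93.8 and 93.5. Both lid KD ranks fell between the controls, with a mean difference of 0.1 points. Its coverage of 14.3, 21.7, 23.4 and 22.7 times the genome background was, on the mean, the lowest of the 10 after that of His3.3B, and its local background stood at percentile 26.5 of all ranked genes. Hira thus ranked first by fold enrichment and ninth by coverage.

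yem (FBgn0005596, chr3R:29118330-29122879, minus strand) encodes yemanuclein, the partner of Hira in the egg. Its rank hardly moved, at 74.8 and 75.3 in the controls, against 74.0 and 74.7 in lid KD, and its peak spanned 1175 to 1212 bp in all 4 libraries. Within that peak the summit lay 337 and 314 bp downstream of the start site in the controls, in the 5′ untranslated region, and 723 and 729 bp downstream in lid KD, in the coding sequence. The groups lay 386 bp apart. Among the 8 genes whose strongest peak was at the same site in every library this was the only one with summits at least 100 bp apart between groups, against 6.05% of 6046 genes. Summit coverage was 15.2 and 24.6 against 24.5 and 23.8 times the genome background. The lists give 1 summit per peak, so the height at the other position in each library is not known.

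asf1 (FBgn0029094, chr3L:19618894-19620398, plus strand) encodes a chaperone that hands H3-H4 to both replication-coupled and Hira-dependent assembly. Here too the summit over the gene lay farther downstream in lid KD, at 507 and 508 bp against 312 and 342 bp in the controls, in the coding sequence throughout. Fold enrichment of this peak was 7.36 and 8.19 against 8.20 and 8.43. The rank of this peak was 90.5 and 84.9 in the controls, against 86.8 and 88.2 in lid KD, so the groups overlapped. asf1 counted as lower in lid KD because in control replicate 2 a stronger peak of 9.73 on the side of the divergent gene l(3)76BDm, which starts 373 bp away, stood for it.

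Nlp (FBgn0016685, chr3R:30004785-30010352, plus strand) encodes a nucleoplasmin that decondenses sperm chromatin. Its start lies 86 bp from that of its paralog Nph, which is transcribed away from it, and 1 peak of 1732 to 1972 bp covered both. The summit was 287 to 341 bp upstream of Nlp, on the side of Nph, so the signal of the genes cannot be told apart. Fold enrichment was 5.37 and 8.05 in the controls, against 6.54 and 6.61 in lid KD, and ranks of 78.0 and 84.3 enclosed those of lid KD, 79.0 and 80.1. A small peak inside the gene, 1340 to 1437 bp from the outer start site, was called in every library, at 1.30 and 1.75 in the controls, against 2.22 and 2.08 in lid KD.

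Chd1 (FBgn0250786, chr2L:2979562-2987723, minus strand) encodes a remodeler that works with Hira on the paternal genome. The peak over its 2 start sites had fold enrichments of 4.79 and 5.31 in the controls, against 5.34 and 5.65 in lid KD, and ranks of 72.7 and 69.0 against 70.5 and 73.9. These ranks overlapped. By summit coverage the peak that stood for Chd1 ranked 86.6 and 86.3 in the controls, against 75.3 and 78.1 in lid KD. In control replicate 2 that was the peak on the side of Bem46, so unlike peaks were compared. Coverage of the peak over Chd1 itself was 18.0 and 19.8 times the genome background in the controls, against 22.0 and 22.4 in lid KD. In control replicate 1 this peak was 1106 bp wide with its summit 91 bp upstream of the nearer start site, whereas in the other 3 libraries the summit lay 198 to 219 bp downstream.

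Nap1 (FBgn0015268, chr2R:23905175-23907294, minus strand) encodes a chaperone of H2A-H2B dimers. A single peak of 1797 to 1823 bp covered most of this gene of 2120 bp, with a summit in the coding sequence 593 to 711 bp downstream of the nearest start site. Fold enrichment was 5.54 and 6.76 in the controls, against 6.41 and 6.14 in lid KD, and rank was 79.3 and 78.3 against 78.3 and 77.3. The groups were separated by 0.00827 points, so Nap1 stood among the genes that ranked lower by the smallest of steps.

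Peak width separated the groups at 4 genes. Summed over the peaks at the start sites, both lid KD widths exceeded both control widths at 2 genes, His2Av and Nap1, where 22.0% of 6735 genes with a peak in every library did so, and both were smaller at 2, yem and Chd1, against 13.1%. At His2Av the sums were 1730 and 1612 bp in the controls, against 1855 and 1842 bp in lid KD. At Nap1 they were 1797 and 1810 bp against 1823 and 1812 bp, a separation of 2 bp. At yem they were 1986 and 1917 bp against 1212 and 1196 bp. The upstream peak of Ctl2, which starts 491 bp away, reached into the yem window only in the controls, and the peak over yem itself was no narrower in lid KD. At Chd1 the sums were 1830 and 1580 bp against 1450 and 1535 bp.

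The offset in coverage between the controls was as large as that between control replicate 1 and lid KD. The spread of the log2 ratio of summit pileups over 8865 regions, an SD from the median absolute deviation, was 0.21 between the controls. It was 0.29 to 0.37 between a control and a lid KD library. At the 8 genes whose strongest peak was at the same site in every library, coverage in control replicate 2 exceeded that in control replicate 1 by 0.38 to 0.77 on the log2 scale, with a median of 0.61 over 6046 genes. Against control replicate 1 the lid KD libraries were higher at all 8 genes, by 0.19 to 0.74, with medians over all genes of 0.58 and 0.51. Against control replicate 2 they ranged from -0.38 to 0.36, with medians of 0.01 and -0.05. His3.3B lay lowest, at 0.27 and 0.19 against control replicate 1 and at -0.30 and -0.38 against control replicate 2, between the 5th and the 25th percentile of all genes in each of the 4 comparisons. BigH1, by its upstream peak on the side of Rad17, lay highest against control replicate 2, at 0.36 and 0.17. Hira followed at 0.11 and 0.06. The peak over BigH1 itself had a coverage of 12.8 and 19.2 in the controls, against 20.1 and 18.9 in lid KD, so lid KD lay on both sides of control replicate 2.

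Most of the genes lay close to a neighbour, which the choice by name did not use. A protein-coding gene started in the opposite direction within 1000 bp at 8 of the 10, at 42 to 491 bp, against 36.2% of all genes, and only His3.3B and Hira stood alone. From 250 bases before to 50 after the start, on either strand, 6 motifs were searched. The 10 genes were searched at all 17 start sites. The values over all promoters come from the outermost start site of each gene alone, so they are not a like count. TATCGATA, the DRE bound by DREF, was found at Nlp alone (9.36% of all promoters). GGTCACAC was found at His3.3A, where it spans the inner start site from position -2, and at Nap1 (7.70%). CACGTG, an E-box, was found at Nlp and, at its innermost start site alone, at Nap1 (4.20%). TATAAA was found at His3.3B, Hira and Chd1 (45.8%), in no case at the usual place of a TATA box. TCAGT, the core of the initiator, was found at 6 genes (51.5%), at His3.3A in an overlap with GGTCACAC, and GAGAG, bound by GAGA factor, at His3.3B and yem (29.7%). GC content of these windows ran from 24.7% at BigH1 to 49.7% at the innermost start of Nap1, with a median of 38.0% over all promoters.

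Among 26 other genes of histone deposition and exchange, 25 had a peak in all 4 libraries, and mil, a NAP family gene known from the testis, had none. Both lid KD ranks lay below both controls at 15 of the 25 and above at 3, where 41.0% and 17.0% of all ranked genes did so, and the median difference was -2.0 points against -1.36 over all genes. Beyond the margin 0 were higher, against 1.16%, and 1 was lower, against 1.31%. That gene was Iswi, the motor of several remodelers, with ranks of 69.0 and 69.7 in the controls, against 57.7 and 57.9 in lid KD and a difference of -11.6 points. Widths were greater in both lid KD libraries at 6 of the 25, close to the 22.0% of all genes, and smaller at 1, P32, against 13.1%. Of the wider genes 4 belong to the H2Av exchange complex.

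The highest ranks of this list belonged to the genes of replication-coupled assembly and of FACT. The ranks of the genes for the large and the middle subunit of chromatin assembly factor CAF-1 ran from 94.8 to 97.9 and from 94.1 to 96.5, and those of dre4, the Spt16 subunit of FACT, from 94.5 to 97.5. All 3 genes of the FACT and Spt6 class had both lid KD ranks below both controls, which 41.0% of all ranked genes had, with Spt6 at 72.0 and 65.8 against 60.3 and 62.0 and Ssrp at 68.8 and 68.9 against 67.2 and 66.4. Caf1-55, whose product also serves other complexes, had control ranks of 56.4 and 68.2 around lid KD ranks of 57.3 and 56.5.

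In the H2Av exchange complex, which places the product of His2Av, both lid KD ranks lay below both controls at 3 of 5 genes and above at 1, with a median difference of -4.4 points. Over all ranked genes 41.0% lay below and 17.0% above, with a median difference of -1.36 points. Its helicases pont and rept ranked lower in lid KD, at 90.8 and 94.0 against 87.1 and 86.5 and at 88.5 and 89.6 against 85.0 and 84.3. So did YL-1, at 68.7 and 74.0 against 66.1 and 67.0, whereas the groups overlapped at Tip60. Its motor dom ranked higher, at 74.8 and 72.5 against 77.8 and 77.7. In the class of H3-H4 and CENP-A handling 4 of 6 genes lay below and 2 above, beside the same shares of all genes, with a median of -2.5 points. Nasp ranked higher in lid KD, at 85.5 in both controls against 90.5 and 89.9, and so did the replacement H4 gene His4r, at 88.6 and 88.0 against 90.0 in both. cal1, the loader of centromeric CENP-A, ranked lower, at 86.2 and 82.9 against 81.0 and 82.0, as did XNP, Daxx and cid, with differences of -3.0, -3.3 and -2.0 points. In the NAP and nucleoplasmin families, P32 had ranks of 89.9 and 90.5 against 84.6 and 85.2 and Set of 67.4 and 73.1 against 63.6 and 63.9. The remodeler genes Chd3, Acf and kis had overlapping groups, and at kis the controls alone lay far apart, at 76.6 and 53.2.

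**Figure D5:**
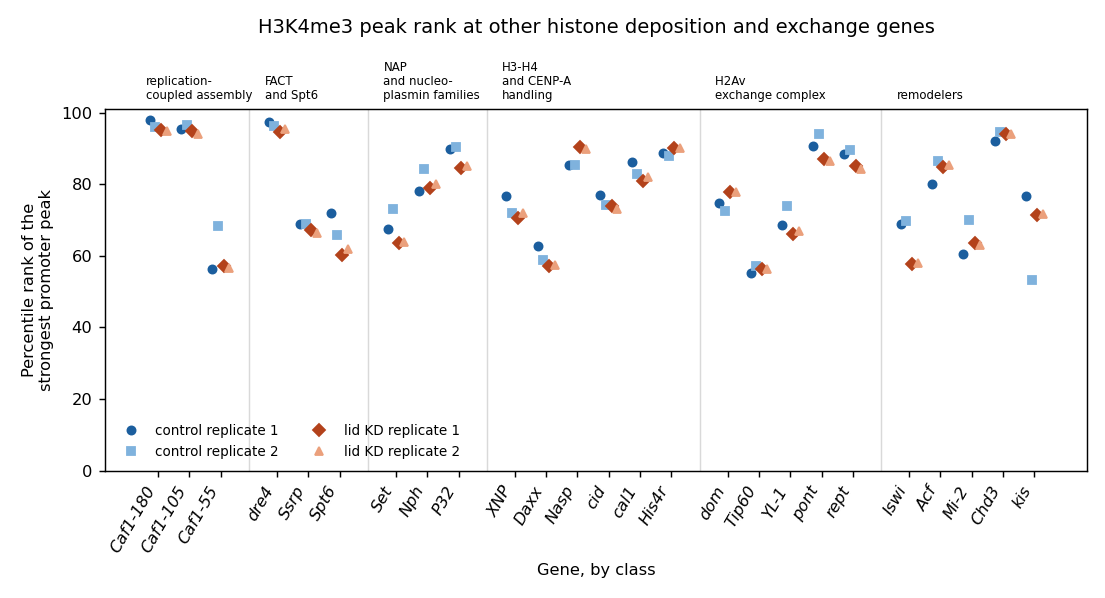
Percentile rank of the strongest H3K4me3 peak (vertical axis, 100 is the strongest of the library) at the 25 other histone deposition and exchange genes with a peak in every library, grouped by class. Circles and squares are the controls, diamonds and triangles the lid KD libraries. At Iswi the lid KD points, 57.7 and 57.9, lie clear of the controls at 69.0 and 69.7.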

How the data were processed

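H3K4me3 ChIP-seq (antibody ab8580) of control and lid KD ovaries was taken as 4 deposited peak lists, 1 per library. Per the labels and the study's methods, the authors aligned paired-end reads of 50 bases to dm6 with Bowtie2 2.3.3, kept unique alignments, removed duplicates with Picard 2.17.10 and ran MACS2 2.1.1 on each library by itself with a q-value threshold of 0.1. Whether an input library was used is not given in the sources used here. The deposited fold enrichment is a ratio of summit pileup to local background. The deposited −log10 p-value and −log10 q-value belong to the summit. Because only called peaks are listed, a missing peak is a call and not a height of 0.

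The 10 genes, the list of other genes and the tests were chosen with earlier results of these data known. The text names all 10, and of the other genes those beyond the margin, those with a peak in only some libraries and up to 3 per class with the highest mean rank. Beyond that rule, every gene of the H2Av exchange complex and of H3-H4 and CENP-A handling is named. The planned list also held hanabi, which has no values here. A gene was given the peak of highest fold enrichment that shared at least 1 base with the 500 bp on either side of an annotated start site (Ensembl BDGP6). Pileup and background were solved from fold enrichment and p-value with a Poisson tail. At least 99.94% of pileups per list came out whole within 0.05 fragments, and 6 to 8 peaks per list could not be solved. The genome background is the value most peaks of a list share at the floor. Percentile ranks are within lists of 12087 peaks. The solver and the rank calls were tested on simulated data. The study's methods describe the libraries of a group as biological replicates, each from its own pool of dissected ovaries, which the labels do not state. Alternatives changed the window, the q-value, the peak that stands for a gene, the rank measure, the margin, the width ratio, the libraries kept and the use of replicate numbers. Python 3.11.15, numpy 2.4.6, pandas 2.3.3 and scipy 1.17.1 were used.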

Additional observations from a re-analysis of the deposited data

How the results depend on the processing

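Of the 10 genes, His2Av and His3.3B had both lid KD ranks below both control ranks under all 16 alternatives that ranked them, with differences from -13.69 to -5.42 points and from -24.64 to -6.85 points. The alternatives share the same 4 libraries. His3.3B stayed lower beyond the margin when any 1 library was left out, but the count of genes lower beyond the margin was 0 with a window of 1000 bp, where a stronger peak upstream stood for it, with ranks by -log10 p, by summit coverage or within 10 GC classes, and with a margin of 20, and was 2 with a margin of 5, which added His2Av. Over all genes the count was 86, against 54 by summit coverage, 132 in the lists as deposited, 128 with the lid KD libraries as 1 sample, 170 with the peak nearest to a start site, 610 with a margin of 5, 10 with a margin of 20 and 139 to 477 without 1 library, and the count of higher genes was 76, against 28, 26, 96, 80, 245, 14 and 97 to 453. Within GC classes it was 103 lower and 146 higher, with 53 higher where the summit had to lie in the window.

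The count of genes above both controls was 0 with a window of 250 bp, with the summit in the window, with the nearest peak, with the lists as deposited and with the gene-side peak (a summit 0 to 1000 bp downstream of a start site, chosen after seeing the data), and 2 by -log10 p and by summit coverage. The count below both was 3 with the summit in the window (His2Av, His3.3A and His3.3B), 3 by -log10 p and by summit coverage (His2Av, His3.3B and Chd1) and 2 within GC classes. By -log10 p and by summit coverage, the peak on the side of Bem46 stood for Chd1 in control replicate 2. The count of wider genes was 1 with the summit in the window and 0 at a width ratio of 1.2, and that of narrower genes was 1 with a window of 250 bp, with the summit in the window and at the width ratio, and 0 with the gene-side peak. The median difference was -0.86 with a window of 250 bp and with the nearest peak, -0.73 by -log10 p, -0.45 by summit coverage, -4.79 in the lists as deposited, -0.72 with the gene-side peak and turned to 0.46 within GC classes. The cause was not tested.

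Leaving out 1 library at a time gave 1 to 3 genes above, 6 to 7 below, 2 to 6 wider and 3 to 4 narrower. The median was -1.77 to -1.24. With 1 library fewer the groups of any gene separate more easily. The shares of all genes above, below, wider or narrower were not counted under the alternatives, so these counts have no background beside them. The 6 wider genes came without control replicate 1 and the 4 narrower without control replicate 2. Single genes changed sign as follows. Hira ranged from -1.14 without control replicate 2, past -0.06 without lid KD replicate 1, to 1.32 without control replicate 1, and went to -1.38 in the lists as deposited. Nlp ranged from -4.74 without control replicate 1 to 1.60 without control replicate 2. Chd1 ranged from -0.76 without lid KD replicate 2 to 2.63 without lid KD replicate 1, with -0.49 without control replicate 2, and went to -4.58 by -log10 p, to -9.75 by summit coverage and to -4.72 in the lists as deposited. By -log10 p yem went to 0.67 and Nap1 to 0.70, by summit coverage to 0.98 and 0.63, and within GC classes to 0.59 and 0.34, with His3.3A at 3.80. BigH1 went to -0.09 in the lists as deposited. Of 96 coverage ratios, 12 lay on the other side of 0.

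The labels number the libraries 1 and 2 in both groups but name no shared batch, and same-numbered libraries did not deviate together (correlation 0.07 over 7946 regions). With the replicate block the counts were 0 higher and 1 lower beyond the margin, 1 above, 6 below, 3 wider and 2 narrower, and the exact p within numbers was 0.5 for the 7 genes that moved one way in both pairs, the smallest it can be. With so few libraries no result could pass a threshold of 0.05, and a peak below the calling limit of a list has no height here.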
